A study of Mus musculus with 24 samples.

Results

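Potassium channel genes of the kidney were described in 10 members: Kcnk1, Kcnk3 and Kcnk5, which encode tandem-pore channels, Kcnj1, Kcnj10, Kcnj15 and Kcnj16, which encode inward rectifiers, Kcnma1, which encodes the pore of the large-conductance calcium-activated channel, and Kcnq1 with its accessory subunit Kcne1. They were taken by name, as the 10 genes with a probe set of that symbol alone, out of 18782 genes measured in this way, and each had 1 such probe set. Whole-kidney RNA had been hybridised to 24 arrays, 1 per mouse. The 4 groups of 6 mice were BPH/2J females, BPN/3J females, BPH/2J males and BPN/3J males. BPH/2J is the Schlager hypertensive strain and BPN/3J its normotensive control, both obtained by selective breeding on blood pressure. All mice were untreated and 12 weeks old, kidneys were taken in the inactive period of the day, and the blood pressure of the mice on the arrays was not part of the data used here. Strain was compared within each sex, as in the study, and sex within each strain.

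Potassium channels set the membrane voltage of kidney tubule cells and return or secrete the potassium that pumps and cotransporters bring in. In the proximal tubule and along the basolateral side of the distal nephron they recycle potassium for the sodium pump, and on the luminal side of the thick ascending limb and collecting duct they feed the sodium-potassium-chloride cotransporter and secrete potassium into the urine. Since salt and potassium handling in the distal nephron bears on blood pressure, some of these genes, such as KCNJ1 and KCNJ10, are linked to inherited salt-wasting in humans. The arrays read whole tissue, in which fewer cells of a type and less RNA per cell cannot be told apart.

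For 3 of the genes the text gives the 250 bases before their start site, because they behaved differently. Kcnk1 had the largest strain difference in both sexes, Kcnk5 the largest sex difference in BPH/2J, and Kcnj1 differed by sex and hardly by strain. The sequences are those of RefSeq on the mouse build GRCm38.p6, not of BPH/2J or BPN/3J, and read 5′ to 3′ towards the gene. Capitals mark matches on either strand to the TATA box TATAAA, to the GC box GGGCGG, to the steroid receptor half-site AGAACA and to the nuclear receptor half-site AGGTCA. The windows are chr8:125994852-125995101 on the plus strand for Kcnk1, chr14:20181783-20182032 on the minus strand for Kcnk5 and chr9:32393735-32393984 on the plus strand for Kcnj1.
Kcnk1: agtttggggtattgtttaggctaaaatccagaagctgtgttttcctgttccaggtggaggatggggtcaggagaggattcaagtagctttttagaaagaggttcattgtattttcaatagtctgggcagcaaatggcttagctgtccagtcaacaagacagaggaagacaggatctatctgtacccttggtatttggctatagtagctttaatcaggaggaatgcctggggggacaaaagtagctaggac
Kcnk5: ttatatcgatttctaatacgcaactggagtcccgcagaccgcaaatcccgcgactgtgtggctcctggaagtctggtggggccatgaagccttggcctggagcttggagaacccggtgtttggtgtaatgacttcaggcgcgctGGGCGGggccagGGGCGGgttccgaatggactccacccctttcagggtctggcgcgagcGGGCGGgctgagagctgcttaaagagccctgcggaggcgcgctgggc
Kcnj1: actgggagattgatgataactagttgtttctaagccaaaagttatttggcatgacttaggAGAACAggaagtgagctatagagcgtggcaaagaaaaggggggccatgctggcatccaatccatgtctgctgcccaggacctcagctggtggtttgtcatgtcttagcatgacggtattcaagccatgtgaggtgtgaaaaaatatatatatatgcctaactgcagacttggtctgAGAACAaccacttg
The Kcnk1 window held no match, 44.4% G and C and 0 CpG. The Kcnk5 window had 62.8% G and C, 19 CpG and 3 GC boxes, at 106, 94 and 47 bases before the start. The Kcnj1 window had 44.8% G and C, 2 CpG and 2 steroid receptor half-sites, at 190 and 14 bases. Over the 32851 windows of the same length, the median was 52.4% G and C and 6 CpG, and 12.4% held the TATA box, 32.7% the GC box, 16.1% the steroid receptor half-site and 14.0% the nuclear receptor half-site. Windows were found for 7 of the 10 genes, 10 windows in all. Of the others, the Kcnj15 window held no match, that of Kcnj10 held 1 steroid receptor half-site and 2 GC boxes, that of Kcnma1 held 3 GC boxes, a pair of them overlapping, and Kcnj16 had 4 windows. A match describes these letters only.

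Values were log2 expression after robust multi-array averaging (RMA), so that 1 unit is a doubling. They ran between 2.12 and 14.55 over 28853 probe sets, array medians lay between 6.89 and 6.97, and arrays of a group correlated at r between 0.981 and 0.997. The kidney's proximal tubule genes were high and even, with a list mean between 12.69 and 12.90 on every array. Genes of neighbouring tissues were not even. The mean of 9 adrenal cortex genes ran between 5.69 and 10.18 over the 24 arrays, that of 19 hepatocyte genes between 6.94 and 11.81, and that of 8 brown and white fat genes between 7.73 and 9.70. The fat genes averaged 8.73 to 9.70 on the BPH/2J female arrays and 7.80 to 8.68 on the BPN/3J female arrays, without overlap. The highest hepatocyte values were in BPN/3J females. Since values of the array are not comparable between probe sets, levels were compared only within a gene.

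**Figure D1:**
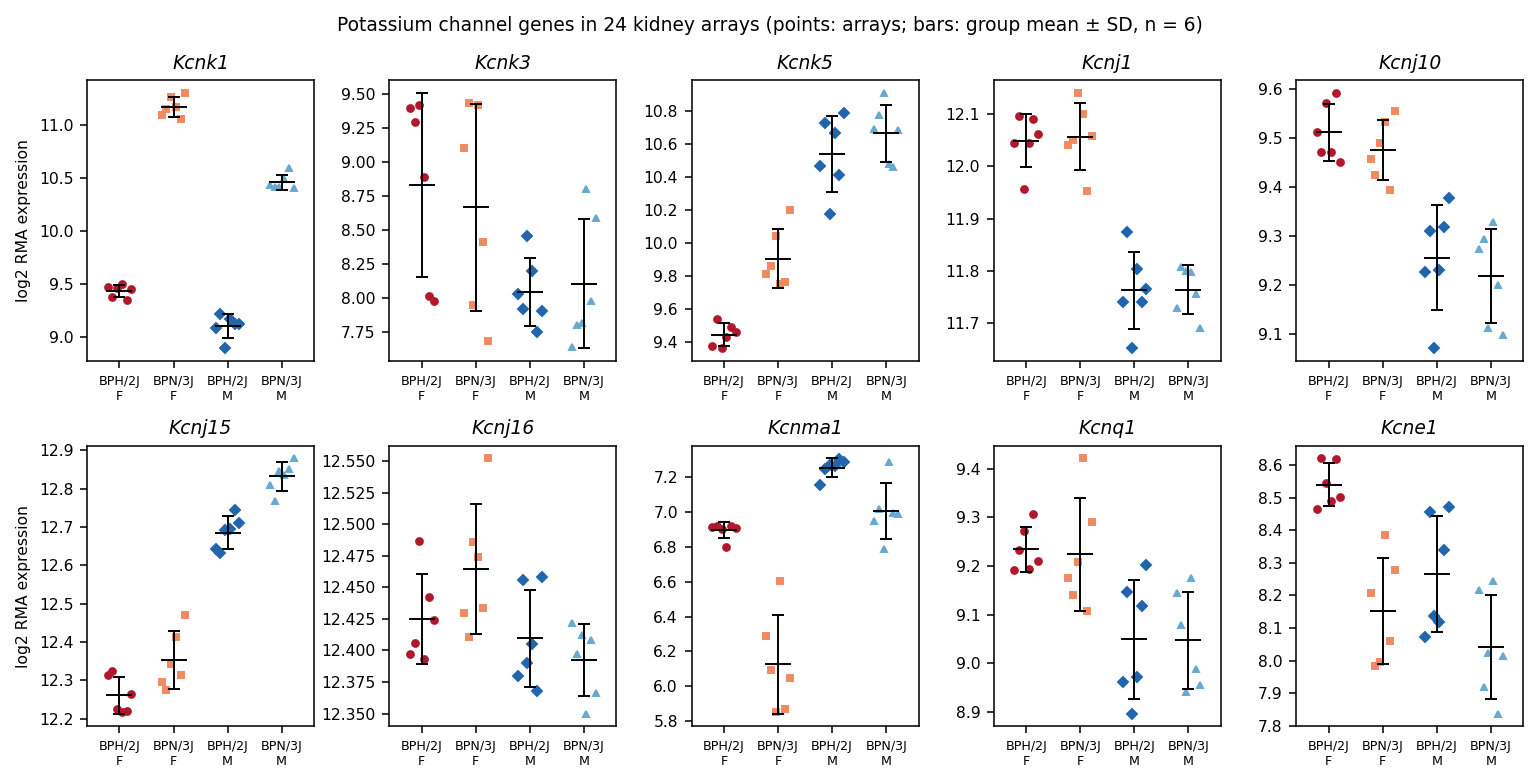
Log2 RMA expression (vertical axes, separate for each gene) of the 10 potassium channel genes in BPH/2J females, BPN/3J females, BPH/2J males and BPN/3J males (F, female, M, male); points are arrays, bars the group mean and SD of 6 arrays. Kcnk1 falls into 4 separate levels, Kcnk3 is scattered within each group, and Kcnj1 and Kcnj10 split by sex and not by strain.

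Kcnk1 encodes TWIK-1, a weakly inward rectifying tandem-pore channel found in several nephron segments. It was the only one of the 10 genes that fell in BPH/2J kidneys of both sexes at the study's threshold, a Bonferroni-adjusted p under 0.05, and the difference was many times the spread within groups. The lowest, median and highest arrays read 9.35, 9.46 and 9.50 in BPH/2J females and 11.06, 11.16 and 11.31 in BPN/3J females. In males they read 8.89, 9.12 and 9.22 in BPH/2J and 10.41, 10.43 and 10.60 in BPN/3J. None of the 4 groups overlapped any other, in the order BPN/3J females, BPN/3J males, BPH/2J females, BPH/2J males downwards. The group means were 9.43 ± 0.060 in BPH/2J females and 11.18 ± 0.094 in BPN/3J females (SD, n = 6 each), a log2 difference of -1.74 (SE 0.048, limma, Bonferroni-adjusted p = 9.45e-10), or 3.35-fold lower in BPH/2J. In males they were 9.10 ± 0.11 in BPH/2J and 10.46 ± 0.073 in BPN/3J, a difference of -1.36 (SE 0.055, limma, Bonferroni-adjusted p = 7.28e-08), or 2.56-fold lower in BPH/2J. The study picked Kcnk1 from these arrays, so the strain difference is not independent evidence of its direction. The study also measured Kcnk1 by qPCR on the same RNA. By qPCR Kcnk1 was lower in BPH/2J in both sexes, by nearly the same fold in each, and higher in females of both strains.

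Kcnk1 was also higher in females than in males of each strain, and more so in BPN/3J. Its female minus male difference was 0.33 in BPH/2J (SE 0.053, limma, adjusted p = 0.000346, Benjamini-Hochberg as for all sex differences) and 0.72 in BPN/3J (SE 0.051, limma, adjusted p = 2.79e-07). The strain difference on the arrays was therefore larger in females than in males, by -0.38 on the log2 scale (females minus males, SE 0.072, limma interaction, Benjamini-Hochberg adjusted p = 0.00353). With the mean of the fat genes as a covariate this interaction was -0.35 and no longer passed (adjusted p = 0.0616). The strain difference itself was -1.66 in females and -1.36 in males with that covariate, and passed in both. The fat list mean did not overlap between the female strains, so these fits cannot tell fat signal from strain in females. There the SE of Kcnk1 went from 0.048 to 0.084. Within groups, deviations of Kcnk1 and of the fat list mean correlated at Pearson r = -0.16 (permutation test, Benjamini-Hochberg adjusted p = 0.591).

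Of the 10 channel genes, 1 passed the Bonferroni threshold between strains in each sex, Kcnk1. Over all probe sets 2.36% passed in females (1.07% higher and 1.29% lower in BPH/2J) and 2.56% in males (1.14% higher and 1.43% lower). With Benjamini-Hochberg adjustment 4 of the 10 genes passed in females (Kcnma1 and Kcne1 higher, Kcnk1 and Kcnk5 lower in BPH/2J) and 3 in males (Kcnma1 higher, Kcnk1 and Kcnj15 lower). The share over all probe sets was 14.5% in females (8.01% higher and 6.48% lower) and 15.2% in males (7.48% higher and 7.70% lower). The BPH/2J and BPN/3J arrays did not overlap for 4 of the 10 genes in females and 2 in males, against 9.34% and 9.65% of all probe sets. The median strain difference of the 10 genes was 0.0013 in females and 0.00075 in males, beside 0.015 and 0 over all probe sets. None of the 10 genes was dim, that is under the 40th percentile of mean expression. With dim probe sets left out, 778 passed Bonferroni in females and 844 in males, beside 681 and 740 of all. The Bonferroni share among brighter probe sets was thus higher than that over all.

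**Figure D2:**
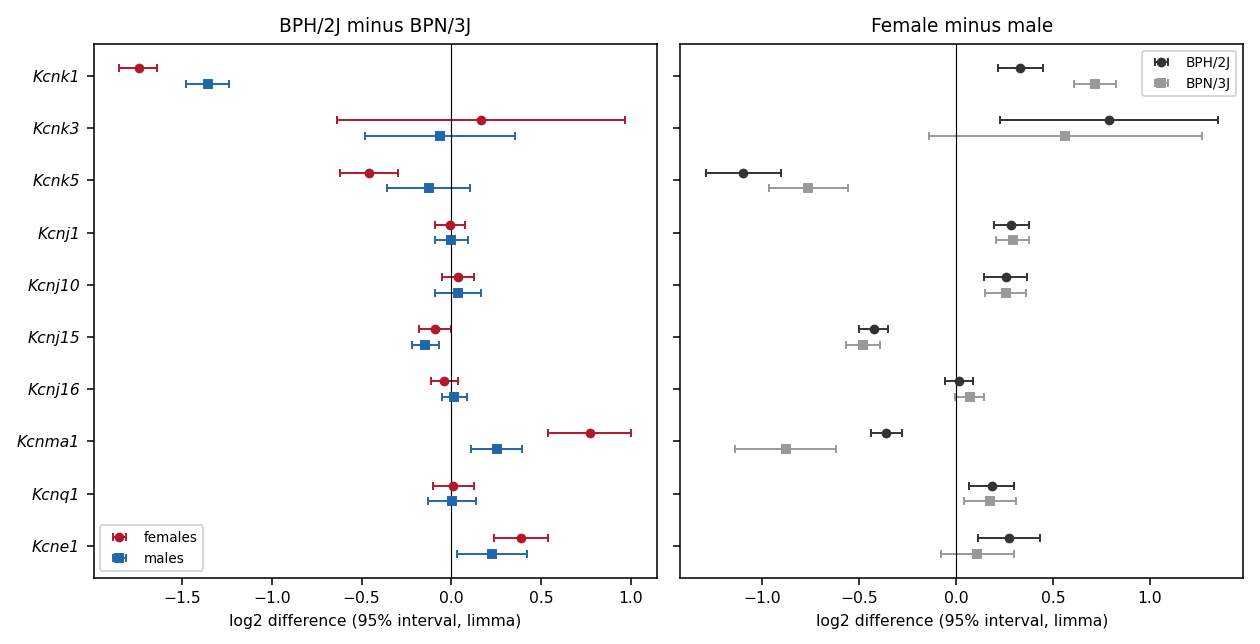
Log2 differences (horizontal axes) with 95% limma intervals for the 10 genes, BPH/2J minus BPN/3J in females and males on the left, and female minus male in BPH/2J and BPN/3J on the right. Kcnk1 lies far to the left in both strain comparisons, at -1.74 and -1.36, while on the sex side Kcnk5, Kcnj15 and Kcnma1 lie left of 0 in both strains.

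Kcnk5 encodes TASK-2, an alkaline-activated tandem-pore channel of the proximal tubule that takes part in bicarbonate reabsorption. It was lower in females than in males of both strains, and the lowest level of all was in BPH/2J females. Its arrays read, as lowest, median and highest, 9.36, 9.45 and 9.54 in BPH/2J females, 9.75, 9.84 and 10.20 in BPN/3J females, 10.18, 10.57 and 10.79 in BPH/2J males and 10.46, 10.69 and 10.91 in BPN/3J males. The female groups were apart from each other, and the male groups overlapped. Female minus male was -1.10 in BPH/2J (SE 0.091, limma, adjusted p = 1.21e-06), or 2.14-fold lower in females, and -0.76 in BPN/3J (SE 0.094, limma, adjusted p = 4.24e-05), or 1.70-fold lower. In females Kcnk5 fell by 0.46 in BPH/2J against BPN/3J (SE 0.075, n = 6 each, limma, Benjamini-Hochberg adjusted p = 0.000844), though not past the Bonferroni threshold. In males the difference was -0.13 (95% interval -0.36 to 0.10), and the strain differences of the sexes were not shown to differ (-0.33, limma interaction, adjusted p = 0.28).

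Within groups, arrays with more fat signal had less Kcnk5. The deviations of Kcnk5 and of the fat list mean from their group means correlated at Pearson r = -0.61 and Spearman rho = -0.59 over 24 arrays (permutation test, Benjamini-Hochberg adjusted p = 0.0055 and 0.0295 over 30 relations), and at r = -0.60 without the 2 arrays farthest from the median. For the adrenal list mean and Kcnk5, r was -0.50 and rho -0.55 (permutation test, Benjamini-Hochberg adjusted p = 0.0745 and 0.0703). With the fat list mean as a covariate the strain difference in females was -0.24 (SE 0.12). The fat list mean did not overlap between the female strains, so that fit cannot tell fat signal from strain.

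Kcnk3 encodes TASK-1, an acid-sensitive tandem-pore channel known from the adrenal cortex and brown fat. Its values were scattered within every group. The lowest, median and highest arrays read 7.97, 9.09 and 9.42 in BPH/2J females, 7.68, 8.76 and 9.44 in BPN/3J females, 7.75, 7.97 and 8.46 in BPH/2J males and 7.63, 7.90 and 8.80 in BPN/3J males. All 4 groups overlapped. The strain difference was 0.16 in females (95% interval -0.64 to 0.97) and -0.063 in males (95% interval -0.48 to 0.36), intervals wide enough to hold changes in either direction. Female minus male was 0.79 in BPH/2J (SE 0.26, limma, adjusted p = 0.0367) and 0.56 in BPN/3J (SE 0.33, limma, adjusted p = 0.222).

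Kcnk3 followed the adrenal cortex genes from array to array, and the fat genes as well. The deviations of Kcnk3 from its group means correlated with those of the fat list mean at Pearson r = 0.792 and Spearman rho = 0.799 over 24 arrays, and with those of the adrenal list mean at r = 0.946 and rho = 0.911 (permutation test, Benjamini-Hochberg adjusted p = 0.0003 and 0.0012 for fat and 0.0003 and 0.0006 for adrenal, over 30 relations). Without the 2 arrays farthest from the median, r was 0.832 and 0.926. In BPH/2J females the 4 arrays whose adrenal list mean was 9.57 to 9.81 read 8.89 to 9.42 for Kcnk3, and the other 2 arrays, with list means of 5.75 and 6.37, read 7.97 and 8.02. Star, the cholesterol carrier of steroid-making cells, read 5.84 to 10.97 in BPH/2J females and 5.97 to 11.47 in BPN/3J females. Within groups of 6 arrays, Pearson r between Kcnk3 and the adrenal list mean was 0.966 in BPH/2J females, 0.96 in BPN/3J females, 0.93 in BPH/2J males and 0.913 in BPN/3J males, with exact permutation p of 0.00556, 0.0167, 0.0167 and 0.0722. Adjusted over the 4 groups these p became 0.0222, 0.0222, 0.0222 and 0.0722 (Benjamini-Hochberg, exact permutation). Spearman rho was 0.943, 0.829, 0.886 and 0.543 in the same 4 groups, with exact adjusted p of 0.0667, 0.0778, 0.0667 and 0.297. The female arrays fell into a high and a low set, with the BPN/3J female array at a list mean of 8.55 between. In BPN/3J males the arrays with list means of 8.89 and 8.62 lay above the rest, which were at 6.94 or less. In these groups r rests largely on such a split. With the adrenal list mean as a covariate the sex difference of Kcnk3 in BPH/2J was 0.27 and did not pass (limma, adjusted p = 0.083). With the fat list mean it was -0.29 (limma, adjusted p = 0.201), while in BPN/3J it was then 0.77 and passed (limma, adjusted p = 0.0384). The fat list mean was 8.73 to 9.70 in BPH/2J females and 8.43 to 8.97 in BPH/2J males. With so little overlap, the BPH/2J fit separates fat signal from sex poorly. The BPH/2J call was also lost in 8 of the 12 fits that each left out 1 array, by the methods' t-test (adjusted p = 0.103), with all 24 arrays in the limma fit (adjusted p = 0.059) and with a trended and robust prior (adjusted p = 0.0665). The 5 genes with the deviations most like those of Kcnk3 over the 24 arrays were Akr1cl (r = 0.961), Peg10 (r = 0.957), the corticotropin receptor gene Mc2r (r = 0.954), Star (r = 0.949) and the aldosterone synthase gene Cyp11b2 (r = 0.947).

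**Figure D3:**
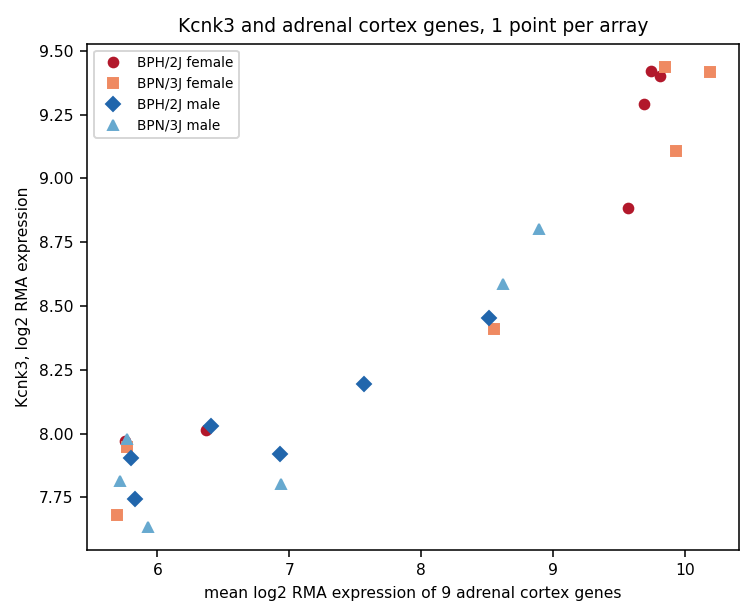
Kcnk3 log2 RMA expression (vertical axis) against the mean log2 RMA expression of 9 adrenal cortex genes (horizontal axis), 1 point per array for BPH/2J females, BPN/3J females, BPH/2J males and BPN/3J males. Arrays with list means of 9.57 or more read 8.89 to 9.44 for Kcnk3, and Kcnk3 is low where the list mean is low, in all 4 groups.

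Of the 4 inward rectifiers, Kcnj1, Kcnj10 and Kcnj15 differed more by sex than by strain, and Kcnj16 passed in neither comparison. Kcnj1 encodes ROMK, which secretes and recycles potassium at the luminal membrane of the thick ascending limb and collecting duct. Its lowest, median and highest arrays read 11.96, 12.05 and 12.10 in BPH/2J females, 11.95, 12.05 and 12.14 in BPN/3J females, 11.65, 11.75 and 11.87 in BPH/2J males and 11.69, 11.78 and 11.81 in BPN/3J males. Every female array was above every male array. The sex difference of Kcnj1, female minus male, was 0.29 in BPH/2J (SE 0.042, limma, adjusted p = 0.000176) and 0.29 in BPN/3J (SE 0.039, limma, adjusted p = 8.78e-05). Between strains the difference was -0.0077 in females (95% interval -0.093 to 0.077) and -0.0010 in males (95% interval -0.092 to 0.090).

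Kcnj10 and Kcnj16 encode Kir4.1 and Kir5.1, which join into the basolateral channel of the distal convoluted tubule, and they did not share a pattern. Kcnj10 read 9.45 to 9.59 in BPH/2J females, 9.39 to 9.55 in BPN/3J females, 9.07 to 9.38 among BPH/2J males and 9.10 to 9.33 among BPN/3J males. Each female group lay above both male groups, by 0.26 in BPH/2J (limma, adjusted p = 0.00202) and 0.26 in BPN/3J (limma, adjusted p = 0.0015). Kcnj16 had the narrowest range of the 10 genes, 12.35 to 12.55 over all 24 arrays, and all 4 groups overlapped in the order of their means. Its sex difference was 0.015 in BPH/2J (95% interval -0.056 to 0.086) and 0.072 in BPN/3J (95% interval -0.0026 to 0.15), and its strain difference -0.040 in females and 0.017 in males. With arrays scaled to a common median the sex difference in BPH/2J was -0.026, so no direction is given for it. After quantile normalisation the BPN/3J difference of Kcnj16 was 0.12 and passed (limma, adjusted p = 0.0173).

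Kcnj15 encodes Kir4.2, an inward rectifier of the proximal tubule. The lowest, median and highest arrays read 12.22, 12.25 and 12.32 in BPH/2J females, 12.28, 12.33 and 12.47 in BPN/3J females, 12.63, 12.69 and 12.74 in BPH/2J males and 12.77, 12.84 and 12.88 in BPN/3J males. Every male array was above every female array, the opposite of Kcnj1. For Kcnj15, female minus male was -0.42 in BPH/2J (SE 0.035, limma, adjusted p = 1.31e-06) and -0.48 in BPN/3J (SE 0.041, limma, adjusted p = 1.6e-06). Among males the strains did not overlap, and Kcnj15 fell by 0.15 in BPH/2J against BPN/3J (SE 0.035, limma, Benjamini-Hochberg adjusted p = 0.0113, Bonferroni-adjusted p = 1). In females the difference was -0.091 (limma, Benjamini-Hochberg adjusted p = 0.191), and the difference between the sexes' strain effects was 0.055 (limma interaction, adjusted p = 0.733).

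Kcnma1 encodes the pore of the large-conductance channel (BK), which secretes potassium at high urine flow in the collecting duct and relaxes vascular smooth muscle. It was higher in BPH/2J kidneys of both sexes by Benjamini-Hochberg and higher in males of both strains. The lowest, median and highest arrays read 6.80, 6.91 and 6.92 in BPH/2J females, 5.85, 6.07 and 6.61 in BPN/3J females, 7.16, 7.27 and 7.31 in BPH/2J males and 6.79, 6.99 and 7.29 in BPN/3J males. BPH/2J arrays lay close together in each sex and BPN/3J arrays were spread, with an SD of 0.046 in BPH/2J females and 0.28 in BPN/3J females. BPH/2J females were above every BPN/3J female, by 0.77 (SE 0.11, limma, Benjamini-Hochberg adjusted p = 0.000262, Bonferroni-adjusted p = 0.247), or 1.70-fold. In males the strains overlapped in 1 BPN/3J array, and the difference was 0.25 (SE 0.067, limma, Benjamini-Hochberg adjusted p = 0.0209). Female minus male was -0.36 in BPH/2J (limma, adjusted p = 8.14e-06) and -0.88 in BPN/3J (limma, adjusted p = 0.00011). The strain difference was larger in females than in males by 0.52 (SE 0.13, limma interaction, Benjamini-Hochberg adjusted p = 0.0402). Without BPN/3J female replicate 4, the highest BPN/3J female array, the strain difference in females was 0.86 and passed Bonferroni (limma, adjusted p = 0.00186). The interaction was lost in 19 of the 24 fits that each left out 1 array, and with the hepatocyte list (0.50, adjusted p = 0.0569) or the fat list as a covariate (0.37, adjusted p = 0.352). Since the fat list mean did not overlap between the female strains, the fit with it cannot tell fat signal from strain in females.

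Markers of intercalated cells and of vascular smooth muscle, in which BK channels are known, moved with strain too, and those of collecting duct principal cells were mixed. The shift was not particular to these lists. Of 6 podocyte genes, 6 were higher in BPH/2J females and 4 in BPH/2J males by Benjamini-Hochberg and none lower. Their median difference was 0.24 in females and 0.27 in males. Over all probe sets 8.01% were higher and 6.48% lower in BPH/2J females by Benjamini-Hochberg, and 7.48% and 7.70% in BPH/2J males. Of 10 intercalated cell genes, 9 were higher in BPH/2J females and 6 in BPH/2J males by Benjamini-Hochberg and none lower, with a median difference of 0.31 in females and 0.24 in males. Their mean per array was 10.18 to 10.34 in BPH/2J females, 9.90 to 10.02 in BPN/3J females, 9.80 to 10.06 among BPH/2J males and 9.57 to 9.76 among BPN/3J males. Of 9 vascular smooth muscle and pericyte genes, 7 were higher in BPH/2J in each sex and none lower. Per array they averaged 9.31 to 9.43 in BPH/2J females, 8.96 to 9.22 in BPN/3J females, 9.08 to 9.18 among BPH/2J males and 8.70 to 8.92 among BPN/3J males. Of 9 collecting duct principal cell genes, 4 were higher and 1 lower in BPH/2J females by Benjamini-Hochberg, and 2 higher and 2 lower in BPH/2J males. Their mean was 10.21 in BPH/2J and 10.09 in BPN/3J females, and 9.98 in BPH/2J and 10.05 in BPN/3J males. By sex, 10 of the 10 intercalated cell genes were higher in females in BPH/2J and 8 in BPN/3J, and 7 of the 9 smooth muscle genes in each strain with 1 lower in BPN/3J, whereas Kcnma1 was lower in females. Over all probe sets 15.6% were higher in females in BPH/2J and 14.4% in BPN/3J. The part of any of these lists in the Kcnma1 difference was not tested.

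Kcnq1 encodes a voltage-gated channel and Kcne1 the subunit that slows it, a pair known from the heart and inner ear and from the proximal tubule. Kcne1 was higher in BPH/2J females than in BPN/3J females, while Kcnq1 hardly differed by strain. For Kcne1 the lowest, median and highest arrays read 8.47, 8.52 and 8.62 in BPH/2J females, 7.98, 8.13 and 8.39 in BPN/3J females, 8.07, 8.24 and 8.47 in BPH/2J males and 7.84, 8.02 and 8.24 in BPN/3J males. The female strains did not overlap, and Kcne1 rose by 0.39 in BPH/2J (SE 0.069, limma, Benjamini-Hochberg adjusted p = 0.00176, Bonferroni-adjusted p = 1). In males the difference was 0.22 (SE 0.090, limma, Benjamini-Hochberg adjusted p = 0.126), and the interaction was 0.16 (limma, adjusted p = 0.631). Its female minus male difference was 0.27 in BPH/2J (limma, adjusted p = 0.0128) and 0.11 in BPN/3J (limma, adjusted p = 0.383). With the fat list mean as a covariate the BPH/2J sex call of Kcne1 was lost, though the difference was not smaller (0.32, limma, adjusted p = 0.0944). The fat list mean overlapped little between the sexes of BPH/2J, so that fit separates fat signal from sex poorly.

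Kcnq1 read 9.19 to 9.31 in BPH/2J females, 9.11 to 9.42 in BPN/3J females, 8.90 to 9.20 among BPH/2J males and 8.94 to 9.18 among BPN/3J males. Its strain difference was 0.010 in females (95% interval -0.10 to 0.12) and 0.0025 in males (95% interval -0.13 to 0.14). Females exceeded males by 0.18 in BPH/2J (limma, adjusted p = 0.0203) and 0.18 in BPN/3J (limma, adjusted p = 0.0456). Both sex calls were lost when arrays were scaled to a common median (0.14, limma, adjusted p = 0.0741 in BPH/2J, and 0.14, limma, adjusted p = 0.119 in BPN/3J). They were also lost with the fat list mean as a covariate (limma, adjusted p = 0.0733 and 0.0704), a fit that in BPH/2J separates fat signal from sex poorly. That in BPN/3J was also lost by the methods' t-test (adjusted p = 0.0617), with the adrenal list mean (adjusted p = 0.092) and in 8 of the 12 fits that each left out 1 array.

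Sex differences passed for 9 of the 10 genes in BPH/2J, all but Kcnj16, and for 7 in BPN/3J, where Kcnk3, Kcnj16 and Kcne1 did not pass. The share over all probe sets was 28.9% in BPH/2J and 29.2% in BPN/3J. That share includes dim probe sets, and none of the 10 genes was dim. With probe sets under the 40th percentile left out, 8660 passed in BPH/2J and 8442 in BPN/3J, beside 8349 and 8424 of all. The share among brighter probe sets was thus higher. Females exceeded males for 6 genes in BPH/2J and 4 in BPN/3J, where 15.6% and 14.4% of all probe sets did so. Males exceeded females for 3 genes in each strain, Kcnk5, Kcnj15 and Kcnma1 in both, beside 13.4% of all probe sets in BPH/2J and 14.8% in BPN/3J. The female and male arrays did not overlap for 6 of the 10 genes in each strain, against 18.2% of all probe sets in BPH/2J and 17.6% in BPN/3J. At the Bonferroni threshold 3 genes passed in BPH/2J (Kcnk5, Kcnj15 and Kcnma1) and 2 in BPN/3J (Kcnk1 and Kcnj15). Of all 28853 probe sets, 1361 passed that threshold in BPH/2J and 1367 in BPN/3J. The interaction passed for 2 genes, Kcnma1 upwards and Kcnk1 downwards, against 1.76% of all probe sets (0.918% upwards and 0.842% downwards).

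Among all probe sets that passed between sexes, 53.8% were higher in females in BPH/2J and 49.3% in BPN/3J, and with arrays scaled to a common median 39.0% and 36.1%. That scaling moved the median of all probe sets by less than 0.1. Of the thick ascending limb genes, 7 of 9 were higher in females in BPH/2J and 8 of 9 in BPN/3J, and of the distal convoluted tubule genes 5 and 6 of 8, with none lower. Beside these stand 15.6% and 14.4% of all probe sets higher in females. Of 10 proximal tubule genes, 4 were higher and 3 lower in females in BPH/2J, and 6 higher and 2 lower in BPN/3J. The part of these lists in the sex differences of the channel genes was not tested.

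Within groups, some of the channel genes moved together. Over the 45 pairs of the 10 genes, Pearson r of deviations from the group means ran between -0.503 and 0.881 with a median of 0.234, over 24 arrays that share whole-tissue composition. The highest was between Kcnj10 and Kcnq1 (r = 0.881), which were each other's closest gene among all single-symbol genes on the array. Next to Kcnq1 came Hsd11b2, the enzyme that guards the mineralocorticoid receptor in the collecting duct (r = 0.878), and then Kcne1 (r = 0.832). Closest to the others in the same measure were Cyp2d12 for Kcnk5 (r = 0.769), Pkia for Kcnj1 (r = 0.81), Sipa1l1 for Kcnj15 (r = 0.815), Tmem165 for Kcnj16 (r = 0.765) and Paqr8 for Kcnma1 (r = 0.853). These r are descriptions, with no test.

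**Figure D4:**
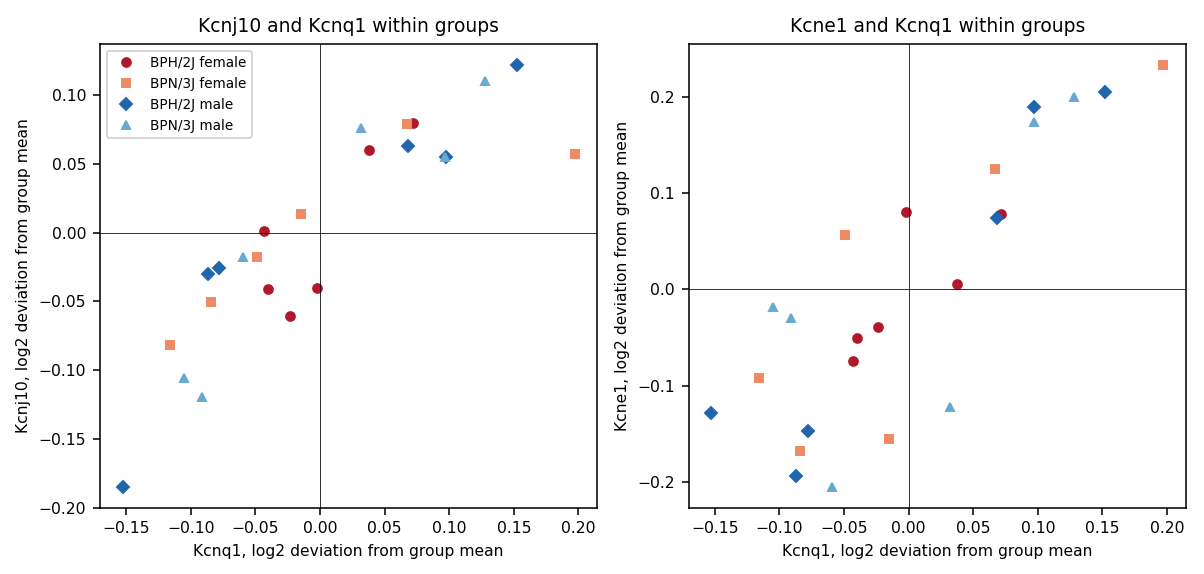
Deviations of Kcnj10 (left) and Kcne1 (right) from their group means against those of Kcnq1, all on the log2 scale, 1 point per array for BPH/2J females, BPN/3J females, BPH/2J males and BPN/3J males. In both panels arrays above their group mean for Kcnq1 tend to be above it for the other gene, at r = 0.881 and 0.832.

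The genes most like Kcnk1 over all 24 arrays were Dap (r = 0.978), the lipid esterase gene Aadac (r = 0.976), the epithelial splicing regulator Esrp1 (r = 0.975), Coa3 (r = 0.973) and the peptidase inhibitor Spink6 (r = 0.967). All 5 were lower in BPH/2J at the Bonferroni threshold in both sexes, which the choice by likeness to Kcnk1 fixes. Their strain differences were -0.82 and -0.85 for Dap, -0.80 and -0.73 for Aadac, -0.86 and -0.87 for Esrp1, -0.44 and -0.33 for Coa3, and -4.69 and -3.53 for Spink6, the first value of each gene being for females and the second for males. Not all had the sex difference of Kcnk1 within BPH/2J, where female minus male was -0.13 for Spink6 and 0.012 for Coa3 (limma, adjusted p = 0.608 and 0.84). Once the group means were taken out, other genes were closest to Kcnk1, namely Zc2hc1c (r = 0.763), Uhrf1 (r = 0.753), Ephx3 (r = 0.729), Tspan33 (r = 0.701) and 1700030K09Rik (r = 0.695).

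The strain difference of Kcnk1 was not seen in the genes next to it. Of the 3 measured genes on each side in RefSeq order on chromosome 8 (Ntpcr, Pcnx2, Map3k21, Slc35f3, Coa6 and Tarbp1), none passed Bonferroni in either sex, and 1 passed Benjamini-Hochberg, Slc35f3 in females at -0.32 (limma, adjusted p = 0.0049). Over the 60 neighbours of the 10 genes, 1 passed Bonferroni in females and 2 in males, beside 2.36% and 2.56% of all probe sets. Lrmda, the next gene but 1 from Kcnma1, differed by -2.05 in females and -2.41 in males (limma, Bonferroni-adjusted p = 3.25e-11 and 7.18e-11), lower in BPH/2J and opposite to Kcnma1. Cdkn1c, beside Kcnq1, rose by 0.54 in BPH/2J males and by 0.56 in BPH/2J females (limma, Bonferroni-adjusted p = 0.0057 and 0.0564). The neighbour comparison was chosen after values had been seen.

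Of the other 77 genes whose symbols begin with Kcn, at the Bonferroni threshold 0 passed between strains in females and 1 in males, and none in both sexes. The 1 was Kcnip3, which encodes a calcium-binding partner of voltage-gated channels. It averaged 7.78 ± 0.13 in BPH/2J males and 8.29 ± 0.082 in BPN/3J males, a difference of -0.52 (limma, Bonferroni-adjusted p = 0.0425), and differed by -0.43 in females. By Benjamini-Hochberg 10 were higher and 4 lower in BPH/2J females, and 6 higher and 2 lower in BPH/2J males. That is 18.2% of them in females and 10.4% in males, beside 14.5% and 15.2% of all probe sets. The median difference of the 77 was 0.041 in females and 0.025 in males.

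A further 3 of them are named after their values were seen. Kcna1, a voltage-gated channel gene of the distal convoluted tubule, differed by -0.42 in females (limma, Benjamini-Hochberg adjusted p = 0.044) and by 0.35 in males (limma, Benjamini-Hochberg adjusted p = 0.044), so that the strain effects of the sexes were opposite (interaction -0.77, limma, adjusted p = 0.0195). Kcnj5, next to Kcnj1 on the chromosome and known from aldosterone-producing cells, was 0.48 higher in BPH/2J females and 0.023 in BPH/2J males (interaction 0.45, limma, adjusted p = 0.0253). Kcnip2, another calcium-binding partner, was higher in females by 1.55 in BPH/2J and 1.81 in BPN/3J. By sex, 16 of the 77 were higher and 3 lower in females in BPH/2J, and 13 higher and 2 lower in BPN/3J. That is 24.7% of them in BPH/2J and 19.5% in BPN/3J, below the 28.9% and 29.2% of all probe sets.

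**Figure D5:**
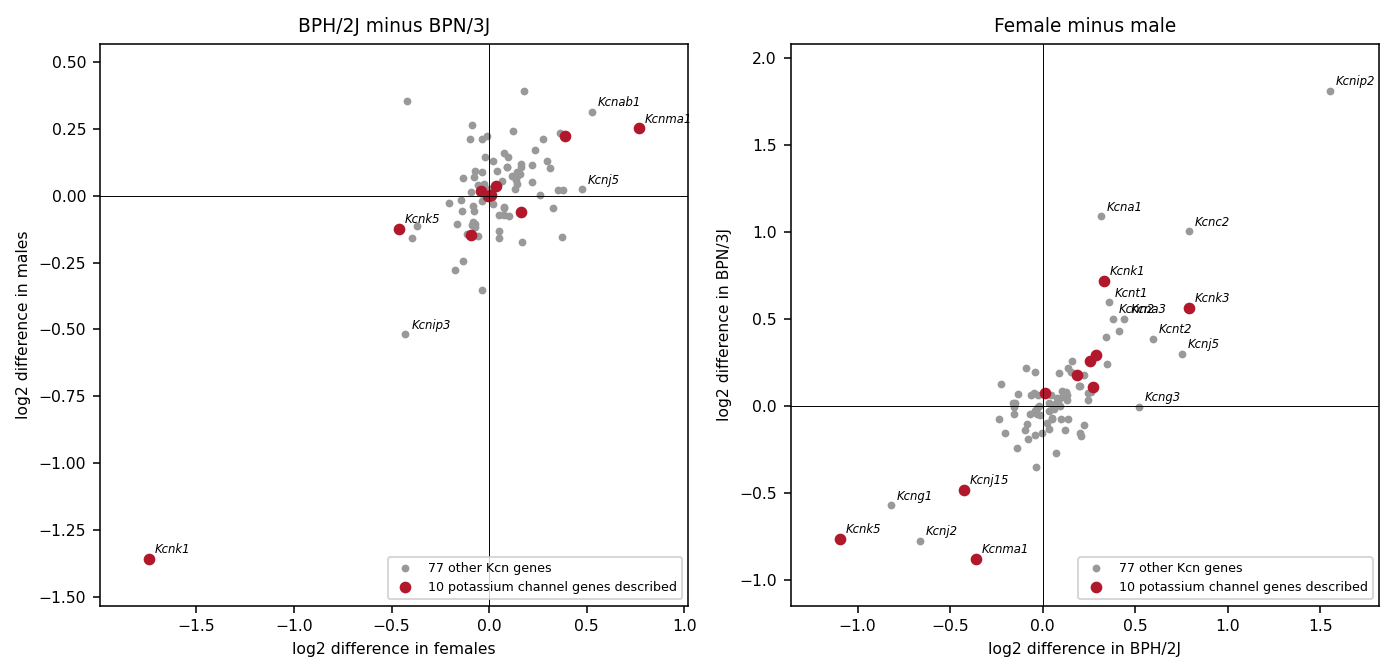
Log2 differences of the 10 potassium channel genes (large points) and of 77 other Kcn genes (small points). The left panel sets BPH/2J minus BPN/3J in females (horizontal) against males (vertical), and the right panel female minus male in BPH/2J (horizontal) against BPN/3J (vertical). Genes beyond 0.45 on either axis are named, and Kcnk1 stands alone at the lower left of the strain panel.

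Genes that work beside the channels gave a mixed picture between strains. Over all probe sets 2.36% passed Bonferroni in females and 2.56% in males, and 14.5% and 15.2% passed Benjamini-Hochberg. Of 16 measured sodium channel, pump and cotransporter genes, 3 were higher and 1 lower in BPH/2J females at the Bonferroni threshold, and 2 higher and 1 lower in BPH/2J males. The gastric-type proton-potassium pump subunit Atp4a was higher in BPH/2J by 2.40 in females and 2.04 in males (limma, Bonferroni-adjusted p = 9.33e-11 and 1.31e-05). Slc12a7, a potassium-chloride cotransporter, was lower in BPH/2J, with -0.44 in females and -0.60 in males (limma, Bonferroni-adjusted p = 0.0012 and 0.000615). The sodium channel subunit Scnn1b rose by 0.46 in BPH/2J females and by 0.31 in BPH/2J males (limma, Benjamini-Hochberg adjusted p = 6.34e-06 and 0.00984). Slc12a2, the basolateral sodium-potassium-chloride cotransporter, rose by 0.71 in BPH/2J males beside -0.044 in females (interaction -0.76). Of 18 WNK and mineralocorticoid pathway genes, 2 were higher and 2 lower in BPH/2J females and 2 higher and 3 lower in BPH/2J males by Benjamini-Hochberg, and 0 passed Bonferroni. The mineralocorticoid receptor gene Nr3c2 was higher by 0.30 in females and 0.28 in males (limma, Benjamini-Hochberg adjusted p = 0.0015 and 0.0016). Of 11 partners of BK and ATP-sensitive channels, Lrrc52 differed by -0.78 in females and -0.56 in males (limma, Bonferroni-adjusted p = 0.0131 and 0.055). Its strain effects were not shown to differ between the sexes (limma interaction, adjusted p = 0.446). At the Bonferroni threshold, Abcc9, the sulfonylurea receptor subunit of vascular cells, differed by 0.91 in males. Abcc9 differed by 0.13 in females, and the strain effects of the sexes differed by -0.78 (limma interaction, adjusted p = 1.8e-06). Of the 4 other KCNE genes, 2 were higher in BPH/2J females (Kcne3 by 0.36 and Kcne4 by 0.22, Benjamini-Hochberg) and 0 passed in males.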

How the data were processed

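Total RNA of 24 mouse kidneys was hybridised to Affymetrix Mouse Gene 1.0 ST arrays, 1 array per mouse. The authors kept RNA with an integrity number above their limit and processed the arrays with robust multi-array averaging (RMA). What they deposited is 1 log2 value per probe set and array, and its software version was not given in the sources used here. Among 28853 probe sets 73.3% had 1 gene symbol in the platform annotation, and all were tested. The intensities behind the values were not used, so their number limits the precision. Strain was compared within each sex on 12 arrays with limma 3.58.1 in R 4.3.3 (lmFit and eBayes), called at a Bonferroni-adjusted p under 0.05 as in the study, with Benjamini-Hochberg counts beside it. Sex within strain and the strain by sex interaction (24 arrays) were called by Benjamini-Hochberg. Each of the 10 members had 1 probe set. Named beside them were other Kcn genes, pathway and cell lists, and the genes most alike by Pearson r. The members and lists were chosen with earlier results of these data known. Other Kcn genes were to be named where called in both sexes or among the 3 largest called in each direction, and up to 4 genes per list. On simulated arrays, with noise drawn separately for each probe set, 50 to 56% of 1.5-fold and 82 to 92% of 2-fold strain changes were recovered, with 0 false calls. False calls numbered 10 for the sex difference in BPH/2J, 2 for that in BPN/3J and 9 for the interaction. The simulation held none of the variation that genes of neighbouring tissues share between arrays, so it does not measure false calls from that source. Sequences and gene order came from RefSeq tables, and the array files name no genome build. Permutation tests used scipy 1.17.1.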

Additional observations from a re-analysis of the deposited data

Results flagged for a closer look

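Of 52 groups of 6 arrays looked at, 2 held an array far from the others, where chance gives about 1 in 20. For Kcnma1 in BPH/2J females the lowest array read 6.80, its nearest neighbour 6.91, and the gap was 0.851 of the group's range. For the mean of the brown and white fat genes in BPH/2J males the highest array read 8.97, its nearest neighbour 8.62, and the gap was 0.648 of the range.

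For 6 of the genes the strain difference in females was unlike that in males by the interaction test. Females minus males was -0.38 for Kcnk1, 0.52 for Kcnma1, -0.77 for Kcna1, 0.45 for Kcnj5, -0.76 for Slc12a2 and -0.78 for Abcc9. For Kcnk1 and Kcnma1 the difference had the same sign in both sexes and was larger in females. For Kcna1 it was opposite in the sexes, and for Kcnj5 it passed Benjamini-Hochberg in females alone. For Slc12a2 and Abcc9 it passed in males alone.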

How the results depend on the processing

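Kcnk1 fell past the Bonferroni threshold in both sexes under every alternative run. Of the 10 genes, those called between strains in females numbered 1, or 2 with all 24 arrays in the fit or with a trended and robust prior, and 4 by Benjamini-Hochberg. In males they numbered 1, or 3 by Benjamini-Hochberg. Sex calls numbered 9 in BPH/2J and 7 in BPN/3J, or 3 and 2 by Bonferroni. In BPH/2J they were 6 with the fat list and 8 or 9 under the others that adjusted by Benjamini-Hochberg. In BPN/3J they were 6 by the methods' t-test, at a common median and with the adrenal list, 8 after quantile normalisation, and 7 under the others that adjusted by Benjamini-Hochberg, single arrays left out aside. Interaction calls numbered 2, or 0 by Bonferroni and with the fat list as covariate, and 1 with the hepatocyte list as covariate or without BPN/3J female arrays 2 and 5. Leaving out 1 array at a time gave 1 to 2 genes between strains in females (2 without BPN/3J female replicate 4), 1 in males, 8 to 9 and 6 to 7 between sexes, and 1 to 2 for the interaction.

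The interaction of Kcnma1 kept its call without BPH/2J female replicate 4, BPN/3J female replicate 1 or 4, or BPN/3J male replicate 1 or 3, and lost it without any other single array (0.46 to 0.53). The sex call of Kcnk3 in BPH/2J was lost without female replicate 1, 2, 3 or 4 or male replicate 1, 2, 5 or 6 (0.67 to 0.79), and that of Kcnq1 in BPN/3J without female replicate 1, 3, 4 or 6 or male replicate 2, 3, 5 or 6 (0.14 to 0.19). Over alternatives at their own threshold, limma's adjusted p for the interaction ran from 0.000939 to 0.352 for Kcnma1 and 0.000339 to 0.0616 for Kcnk1. For strain and sex the alternatives were limma fits and t-tests. There adjusted p ran from 0.000671 to 1 for Kcnma1 between strains in females. Between sexes it ran from 0.00828 to 0.201 for Kcnk3 in BPH/2J. For Kcnq1 between sexes it ran from 0.00781 to 0.0741 in BPH/2J and 0.0215 to 0.119 in BPN/3J.

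Signs turned only for differences that had not been called, apart from the sex difference of Kcnk3 in BPH/2J, which was -0.29 with the fat list as covariate. The fat list mean overlapped little between the sexes of BPH/2J. For the strain difference in females, Kcnj1 was 3.125e-05 after quantile normalisation, Kcnq1 was -0.014 with the hepatocyte list and -0.040 without BPN/3J female arrays 2 and 5, and with the fat list Kcnk3 was -1.66, Kcnj1 0.036 and Kcnj16 0.022. In males, Kcnj1 was 0.0043 at a common median, 0.015 after quantile normalisation and 0.0088 with the fat list, and Kcnq1 was -4.83e-05 with the adrenal list and -0.0046 with the hepatocyte list. For the sex difference in BPH/2J, Kcnj16 was -0.026 at a common median. For the interaction, Kcnj10 was 0.00081 after quantile normalisation, 0.0024 with the adrenal list and 0.028 with the fat list, Kcnq1 was -0.016 with the hepatocyte list and -0.042 without BPN/3J female arrays 2 and 5, and with the fat list Kcnk3 was -0.89 and Kcnj1 0.043. The cause was not tested. Leaving out 1 array, the female strain difference ran from -0.029 to 0.011 for Kcnj1, -0.013 to 0.050 for Kcnq1 and -0.032 to 0.34 for Kcnk3, the male one from -0.023 to 0.021 for Kcnj1, -0.028 to 0.033 for Kcnq1 and -0.16 to 0.077 for Kcnk3, and the interaction from -0.038 to 0.023 for Kcnj10, -0.029 to 0.016 for Kcnj1 and -0.023 to 0.047 for Kcnq1.

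Deviations of same-numbered arrays correlated at -0.567 to 0.444. Between strains in females 4 of 6 were closest to their own number, elsewhere 0 to 2. With the replicate block, no call among the 10 genes changed: 1 gene in each sex between strains, 9 and 7 between sexes, 2 for the interaction, and Kcnk1 at -1.74 in females and -1.36 in males. Over all probe sets, strain calls were 681 in females and 740 in males, and 304 and 321 with the replicate block, 398 and 447 by the methods' t-test, 1106 and 1188 with 24 arrays, and 4180 and 4381 by Benjamini-Hochberg. In females they were 1022 with the trended and robust prior and 197 with the fat list. Sex calls were 8349 in BPH/2J and 8424 in BPN/3J, and 1361 and 1367 by Bonferroni, with 4718 in BPH/2J with the fat list. Interaction calls were 508, 104 by Bonferroni and 271 with the fat list. Other probe sets of a gene could not be compared, since each gene had 1.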
